A study of Mus musculus with 3 samples.

Results

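Classical monocytes were selected by a marker gate from single-cell transcriptomes of mouse liver. A barcode was gated when it had at least 200 detected genes, at least 1 UMI of Lyz2 and UMIs of at least 2 of the 4 panel genes Ly6c2, Ccr2, F13a1 and Plac8. It was left out when it held 2 or more of the 4 genes of any exclusion list. These lists were Arg1, Ccl2, Ccl7 and Ccl12 for wound macrophages, Retnlg, Cxcr2, Csf3r and Stfa2l1 for neutrophils, and Clec4f, Vsig4, Cd5l and Marco for Kupffer cells, the resident macrophages of the liver. The gate held 2194 of the 25263 cells with at least 200 genes.

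The cells came from adult C57BL/6 mice and were profiled by Drop-seq. In this method each cell shares a droplet with a barcoded bead, and its transcripts are counted by UMIs, molecular tags that are unique to a captured mRNA. The control group had sham surgery with sacrifice after 1 day. Both other groups had irreversible electroporation (IRE) of a liver lobe, in which electric pulses kill the cells between a pair of electrodes, with sacrifice 1 day or 7 days later. The treated area, or the matching area of control livers, was punched out, digested with enzymes and depleted of red blood cells. Each condition is a single library pooled from 3 livers, so that no difference between conditions has a replicate check and no test was made. The intervals given below are exact 95% intervals that cover counting error only, and both IRE libraries are set against the same control library, which matches the 1-day but not the 7-day time of sacrifice.

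Classical monocytes are made in the bone marrow, leave it through the chemokine receptor Ccr2 and circulate for a short time before they enter injured tissue. In mice they carry the surface protein Ly6C, encoded by Ly6c2, and inside a wound they can turn into macrophages or acquire antigen-presenting functions. In the injured liver they enter along with neutrophils, while Kupffer cells are already in place. Lyz2 encodes lysozyme, F13a1 the A chain of coagulation factor XIII, and Plac8 a small protein abundant in circulating myeloid cells.

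The gate held 1439 of 10386 control cells, which is 13.9% (13.2 to 14.5). At 1 day after IRE it held 105 of 9253 cells, or 1.13% (0.929 to 1.37). At 7 days it held 650 of 5624 cells, or 11.6% (10.7 to 12.4). The share of gated cells was therefore lowest at 1 day. These are shares of the cells recovered, and fewer monocytes and more cells of other types cannot be told apart. The Kupffer cell gate took 34.4% of the cells at 1 day, and the neutrophil gate took 27% at 7 days.

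The exclusion lists set much of the share at 7 days. Before they were applied, 1657, 163 and 1328 cells passed in the control, 1-day and 7-day libraries. At 7 days, 423 of these cells were left out by the wound macrophage list and 371 by the neutrophil list, so that without the lists the 7-day share was above the control share, 23.6% against 16.0%. At 1 day, 56 cells were left out by the Kupffer cell list. Of the cells that stayed, 65.1% in the control held none of the 12 exclusion genes, compared with 32.4% at 1 day and 24.3% at 7 days. Among the gated 7-day cells, 50.6% carried 1 wound macrophage gene and 51.2% carried 1 neutrophil gene, and among those at 1 day 59.0% carried 1 Kupffer cell gene.

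**Figure D1:**
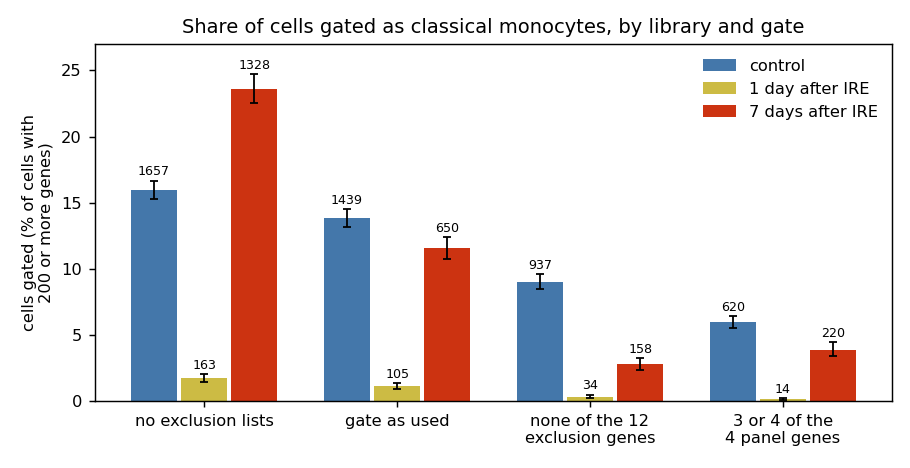
Share of cells gated as classical monocytes in each library (y axis, percent of cells with 200 or more genes) under 4 forms of the gate (x axis). Bars are single libraries, error bars are exact 95% binomial intervals and the numbers are gated cells. The 1-day bar was the lowest under each form, and of these 4 forms the 7-day bar was above the control bar in the one without the exclusion lists, at 23.6% against 16.0%.

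The values that chose the cells are given here as a description. Exactly 2 panel genes were found in 819, 91 and 430 gated cells of the control, 1-day and 7-day libraries, 3 were found in 474, 11 and 174, and all 4 were found in 146, 3 and 46. Just outside the gate, 1468, 386 and 686 otherwise eligible cells had exactly 1 panel gene. At the limit on detected genes, 44, 4 and 25 gated cells had fewer than 10 genes above the minimum of 200, and 36, 3 and 18 barcodes with the same markers had from 190 genes to just below the minimum. Plac8 was found in 90.8%, 86.7% and 80.2% of the gated cells, Ccr2 in 70.0%, 51.4% and 67.8%, Ly6c2 in 68.2%, 65.7% and 52.3%, and F13a1 in 24.2%, 12.4% and 40.6%. Levels are given as CPM, UMIs scaled to 1000000 non-mitochondrial UMIs of the same cells. In this unit Lyz2 stood at 13534, 10844 and 14809 in the control, 1-day and 7-day gated cells and Plac8 at 4588, 2876 and 3554. The values of Ccr2 were 2061, 1303 and 2156 CPM, those of Ly6c2 were 2199, 2098 and 1813 CPM and those of F13a1 were 545, 219.9 and 1036 CPM. Reads of Ly6c2 and of its neighbour Ly6c1 may not be fully separable, since the sequences are nearly identical.

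The gated cells were of similar depth in the 3 libraries, with median UMI counts of 609, 584 and 523.5. Together they held 873496, 59112 and 366877 non-mitochondrial UMIs, so that values at 1 day are the least precise. Mitochondrial transcripts made up 20.6% of the UMIs in the control, 18.8% at 1 day and 3.38% at 7 days. Between 0 and 11 gated barcodes of a library were also cells in another library, and 1 barcode was gated in both the control and the 7-day library. Reads per UMI in gated cells were 3.51, 3.64 and 5.09, and a list of genes that tissue dissociation is known to induce took 0.861%, 0.673% and 1.09% of the UMIs.

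Markers that the gate did not use were compared with the label. A list of other classical monocyte genes had a summed level of 18392 (18108 to 18678) CPM in gated control cells, 11284 (10444 to 12174) at 1 day and 30959 (30392 to 31533) at 7 days. In a T cell gate, used below as a comparison level because T cells should lack most of these monocyte transcripts, the same sums were 7089, 6579 and 13175 CPM. With every cell thinned to 300 UMIs, Ms4a4c, a membrane protein of the CD20 family, was found in 15.7%, 7.84% and 26.7% of the gated cells, against 1.45%, 0.518% and 4.11% of the T cells. Before thinning the shares of gated cells were 29.8%, 15.2% and 41.1%. Median UMI counts of the T cell gate were 698, 562.5 and 495.5, and thinning left out 23, 3 and 55 gated cells and 0, 5 and 9 T cells.

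Chi3l3, which encodes the secreted chitinase-like protein Ym1, separated the gated cells from the T cell gate most widely at 7 days among the markers outside the gate whose shares were computed. It was found in 9.68% of the thinned gated cells of the control, 2.94% at 1 day and 37.6% at 7 days, and in 0 of 345, 0 of 193 and 3 of 73 T cells, where a count of 0 allows, at 3 counts of the total, shares of up to 0.870% and 1.55%. Its level in all gated cells was 449.9, 118 and 2649 CPM, which at 7 days was 5.89 times (5.23 to 6.64) the control level. Reads of its paralog Chi3l4 may be counted with it. Ly6c2 did not separate the gates at 7 days, since 34.5% of the thinned gated cells and 45.2% of the T cells held it, and activated T cells are known to carry Ly6C.

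The label was less well borne out at 1 day. Of the 105 gated cells, 102 held a hepatocyte marker, and the 5 hepatocyte markers summed to 14498 CPM, against 595 in the control and 139 at 7 days. The T cell gate at 1 day held more, 34212 CPM, and albumin (Alb) was found in 75.1% of the thinned T cells and 62.7% of the thinned gated cells. Markers of other blood and vessel cells were also carried by the 1-day cells. At least 2 markers of B, T, NK, dendritic or endothelial cells were found in 30.5% of them, compared with 9.10% in the control and 2.15% at 7 days. Endothelial markers accounted for 15 of these 105 cells and plasmacytoid dendritic cell markers for 13. Of the classical monocyte markers outside the gate, Vcan, a matrix proteoglycan made by classical monocytes, had 1 UMI at 1 day and Cd14, the coreceptor for lipopolysaccharide, had 2. Most of the list went the other way. At 1 day, 21 of 28 measured members (75%) were above both the T cell gate and the barcodes under 200 genes, against 38.6% of all genes. At 7 days, 17 of 29 (58.6%) were, against 38.3%. Because of the markers of other cells, the 105 cells are called the gated cells of the 1-day library below.

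**Figure D2:**
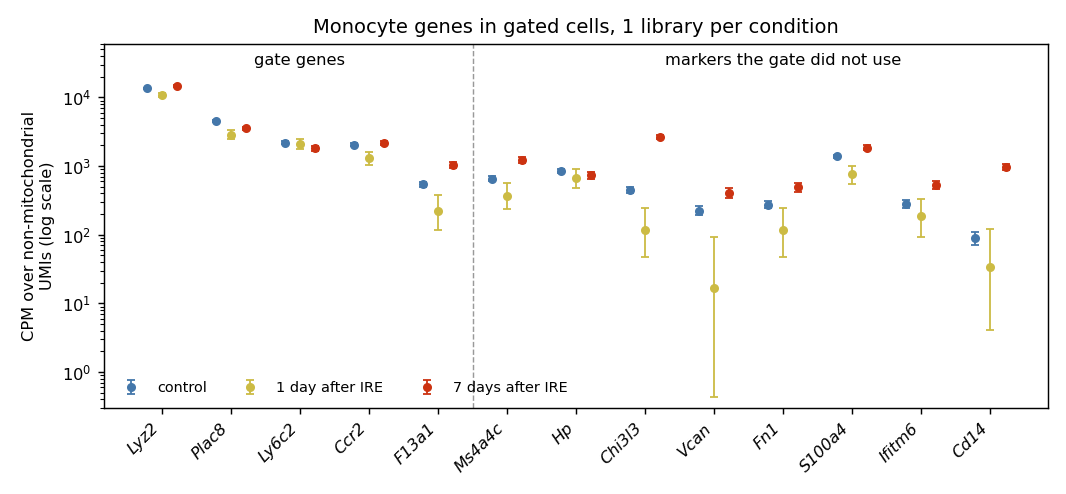
Level of the 5 gate genes and of 8 monocyte markers that the gate did not use (x axis) in gated cells, as CPM over non-mitochondrial UMIs on a log scale (y axis), with exact 95% Poisson intervals and 1 point per library. Chi3l3, Cd14 and Ms4a4c were highest at 7 days, and at 1 day each of the 8 markers outside the gate was below its control point, with wide intervals for Vcan and Cd14.

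Between the 7-day and the control library, 3900 genes had at least 50 UMIs over the gated cells of both libraries, with the 17 gate genes and mitochondrial genes left out. Of these, 268 (6.87%) were 2-fold or more higher at 7 days and 478 (12.3%) were 2-fold or more lower. The median log2 ratio over all 3900 genes was -0.14. When CPM was taken over all UMIs, mitochondrial ones included, the median moved by 0.28 to 0.15 and the counts became 451 higher and 309 lower. The ratios and directions given below for lists and genes are relative to equal CPM and are not centred on the median of all genes. The share of a list past 2-fold is to be read against the 6.87% and 12.3% above. The genes with the largest ratios at 7 days were Cxcl3, Thbs1, Hilpda, Egln3, Cxcl2, G0s2, Trem1, Bnip3, AA467197 and Gm5483. Those with the smallest were Dcn, Col1a2, Col3a1, Col1a1, Igkc, Sdpr, Hbb-bs, Mki67, Cenpf and Sparc.

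Levels in gated cells are set beside the levels in the T cell gate and in the barcodes with under 200 genes, which can hold free RNA and small or poorly captured cells. Of the 268 genes that were higher at 7 days, 102 (38.1%) had a higher CPM in the gated cells than in both, while 38.3% of all 3900 genes did. The lists differed widely in this respect. Above both were 9 of 14 higher interferon-stimulated genes and 3 of 18 low-oxygen and glycolysis genes. So were 1 of 12 cytokine genes and 0 of 8 S100, stefin and annexin genes. In the same order of lists, 12, 15, 6 and 5 of these genes were above the T cell gate. Above the barcodes under 200 genes were 10, 3, 1 and 1. For genes below these levels, transcripts of the gated cells and free RNA cannot be told apart, and the part of free RNA or of other cells in their ratios was not tested. For lists other than monocyte genes, the T cell level can also hold transcripts that T cells make themselves. A gene below it is therefore not shown to be free RNA.

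**Figure D3:**
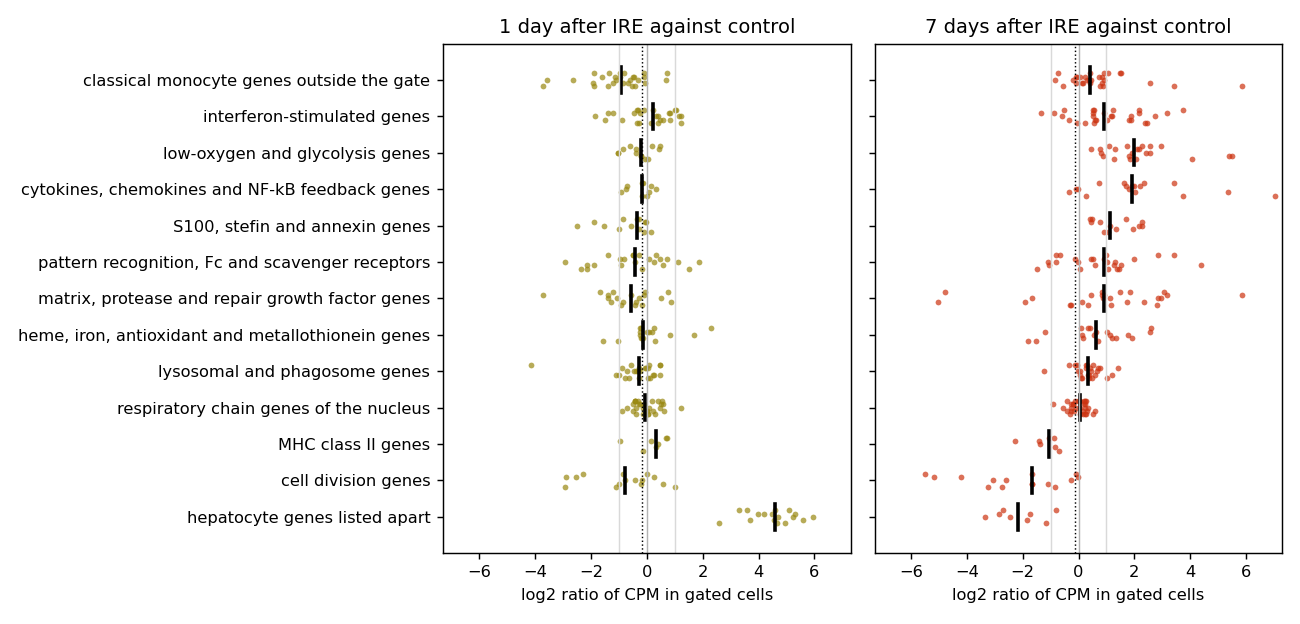
Log2 ratio of CPM in gated cells (x axis) at 1 day (left) and 7 days (right) against the shared control library, for members of 13 gene lists (y axis) with at least 50 UMIs over the compared libraries. Each point is a gene, black bars are list medians, the dotted line is the median of all genes and grey lines mark no change and 2-fold. At 7 days the low-oxygen and cytokine medians lay near 2 and the cell division median at -1.67, while at 1 day the hepatocyte genes lay apart at a median of 4.58.

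Most classical monocyte genes outside the gate differed little between 7 days and control. Of 29 measured members, 6 were 2-fold or more higher, 0 were 2-fold or more lower and the median log2 ratio was 0.42. The 6 were Chi3l3, Cd14, Fcgr1, Lgals3, S100a10 and Thbs1. Ifitm3, an antiviral membrane protein, stood at 2341, 2182 and 3911 CPM in the control, 1-day and 7-day cells, and its 7-day level was 1.67 times (1.56 to 1.79) the control level. The interferon-inducible gene Ifi27l2a had 1943, 1336 and 2603 CPM, and the calcium-binding protein gene S100a6 had 1832, 491 and 3151. Lgals3, which encodes galectin-3, was higher at 7 days, with 1241, 914 and 3439.8 CPM and a ratio of 2.77 (2.55 to 3.01). The lowest ratios of the list were those of Cybb, the catalytic subunit of the phagocyte NADPH oxidase, at 1131, 524 and 629.6 CPM, and of Mgst1, a microsomal glutathione transferase, at 307, 508 and 185 CPM. Cybb reached 0.557 times (0.48 to 0.643) the control level at 7 days.

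Cd14 had 89.3, 33.8 and 965 CPM in the gated cells, and the 7-day level was 10.8 times (8.43 to 14) the control level. It was found in 22.5% of thinned gated cells and 8.22% of T cells at 7 days, while barcodes under 200 genes had 3347 CPM. Fcgr1, the high-affinity receptor for IgG, had 229, 118 and 651 CPM and exceeded both the T cell gate (144 CPM) and the barcodes under 200 genes (215 CPM) at 7 days. The homing integrin subunits Itga4 and Itgal were 2-fold or more lower, since Itga4 had 270.2, 135 and 106 CPM and Itgal 183, 203 and 40.9 CPM. The myeloid integrin genes Itgam and Itgb2 were both 2-fold or more higher, at 341, 67.7 and 741 CPM (Itgam) and 219, 152 and 444 CPM (Itgb2). Among 20 measured chemokine receptors and adhesion genes, 9 were higher and 3 lower, with a median log2 ratio of 0.55. The lowest was Pecam1, the junction protein CD31 of endothelium and leukocytes, with 79, 203 and 8.18 CPM, and the highest Adam8, a membrane protease of activated leukocytes, with 37.8, 0 and 289 CPM.

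The low-oxygen and glycolysis list had the largest median at 7 days among the lists with more than 1 measured member. Of 22 measured members, 18 were 2-fold or more higher, 0 were lower and the median log2 ratio was 1.99. This list holds the enzymes that turn glucose into lactate and genes that the transcription factor HIF-1 is known to induce when oxygen is scarce. The summed level in gated cells was 3484 (3361 to 3609.7) CPM in the control, 3028 (2601 to 3506) at 1 day and 12718 (12356 to 13088) at 7 days. The sum was also higher at 7 days than in the control in the T cell gate (3631 and 9095 CPM) and in the wound macrophage, Kupffer cell and neutrophil gates, so that the difference was not particular to the gated cells.

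Most enzymes of glycolysis were 2-fold or more higher, while those of its first steps, Hk2, Gpi1 and Pfkp, were not. Gapdh, glyceraldehyde-3-phosphate dehydrogenase, had 474, 491 and 2099 CPM and a 7-day ratio of 4.43 (3.92 to 5). Aldolase A (Aldoa) had 377, 288 and 1363 CPM, pyruvate kinase (Pkm) 521, 254 and 1734, and lactate dehydrogenase A (Ldha) 469, 406 and 1156. Phosphoglycerate kinase (Pgk1) had the largest ratio of these enzymes, with 121, 169 and 651 CPM and 5.37 times (4.25 to 6.81) the control level. Hexokinase 2 (Hk2), which opens the pathway, had 42.4, 33.8 and 57.2 CPM. Slc2a1, the glucose transporter GLUT1, had 16, 16.9 and 125 CPM.

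The members with the largest ratios, all known HIF-1 targets, had few UMIs in the control. Hilpda, a lipid droplet protein that restrains triglyceride breakdown, had 8, 2 and 151 UMIs in the control, 1-day and 7-day cells, which is 9.16, 33.8 and 412 CPM, and its 7-day ratio was 44.9 (22.2 to 106). Egln3, an oxygen-sensing prolyl hydroxylase, had 3, 2 and 53 UMIs and a ratio of 42.1 (13.6 to 210.4). Bnip3, which marks mitochondria for removal, had 11, 2 and 77 UMIs and a ratio of 16.7 (8.81 to 34.8). In thinned cells at 7 days, Bnip3 was found in 5.55% of the gated cells and 0 of 73 T cells, which allows, at 3 counts of the total, a share of up to 4.11%, and Hilpda in 9.41% and 4.11%. Before thinning the shares were 9.69% and 1.22% for Bnip3 and 15.5% and 7.32% for Hilpda. In the barcodes under 200 genes these transcripts were more abundant than in the gated cells, with 1076 CPM for Hilpda, 411 for Bnip3 and 421 for Egln3.

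The promoters of this list are shown because most of its members were higher together. In the 250 bases before each gene's start in the mouse RefSeq annotation (GRCm38.p6), ACGTG, the core letters of the hypoxia response element, was searched on both strands. ACGTG also lies within CACGTG, the E-box letters that other factors bind. Of 20 measured members with a promoter in the table, 14 held ACGTG in at least 1 promoter, and 13 of the 17 higher members with a promoter did. Promoters of 1 chromosome were left out of the search. Of the 27025 genes with a searched promoter, 18.5% did, and 16.6% of the 32851 searched promoters held it, against 55.6% of the 27 promoters of the measured members. The list includes genes that HIF-1 is known to induce, so that this higher share is not a result of these data. The stretches around the match are given for the 4 measured members with the largest 7-day ratio that hold it, 5′ to 3′ on the gene's strand, with the matching letters in capitals. The match lies 43 bases before the start in Hilpda, 229 in Egln3, 108 in Bnip3, where it reads on both strands, and 36 in Slc2a1. A match is a description of these letters and not a measured binding site.
Hilpda, chr6:29272553-29272617, plus strand: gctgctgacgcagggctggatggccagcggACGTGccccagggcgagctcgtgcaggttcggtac
Egln3, chr12:54204069-54204124, minus strand: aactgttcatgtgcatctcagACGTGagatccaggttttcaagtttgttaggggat
Bnip3, chr7:138909579-138909644, minus strand: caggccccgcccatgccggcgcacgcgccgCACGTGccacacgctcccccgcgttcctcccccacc
Slc2a1, chr4:119108679-119108743, plus strand: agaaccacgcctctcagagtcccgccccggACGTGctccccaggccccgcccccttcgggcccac

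Interferon-stimulated genes were higher at 7 days and, unlike the low-oxygen genes, mostly above both the level in the T cell gate and that in barcodes under 200 genes. Of 29 measured members, 14 were 2-fold or more higher, 1 was lower and the median log2 ratio was 0.91. The summed level was 5364 (5211 to 5519) CPM in the control, 5464 (4884 to 6094) at 1 day and 9663 (9347 to 9986) at 7 days. At 7 days the wound macrophage gate held 8182 CPM, the neutrophil gate 7258, the Kupffer cell gate 6248 and the T cell gate 5064. These genes are induced when interferon binds its receptors, and many of their products block viral replication.

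The members did not move as a block. Oasl1, a member of the oligoadenylate synthetase family, had 12, 0 and 68 UMIs in the control, 1-day and 7-day gated cells and the largest ratio of the list, 13.5 (7.24 to 27.4). Isg20, an exonuclease that degrades viral RNA, had 50.4, 118 and 264 CPM and a ratio of 5.25 (3.64 to 7.68). Rsad2, which encodes viperin, was chosen after its values were seen, and it had 84.7, 152 and 752 CPM and 8.88 times (6.85 to 11.6) the control level. In thinned cells at 7 days Rsad2 was found in 14.6% of the gated cells and 0 of 73 T cells, which allows, at 3 counts of the total, a share of up to 4.11%, and before thinning in 18.9% and 11%. Barcodes under 200 genes held 951 CPM of it.

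Several members did not reach 2-fold or were lower. The guanylate-binding proteins, which are induced mainly by interferon gamma, were at or below the control level, with 426, 152 and 297 CPM for Gbp2 and 103, 84.6 and 40.9 for Gbp5. Gbp5 was the member lower by 2-fold or more, at 0.397 times (0.213 to 0.69) the control level. Ifi204 and Bst2, a DNA sensor and the antiviral tether tetherin, had 501, 271 and 771 CPM (Ifi204) and 341, 609 and 482 CPM (Bst2), and the nucleic acid sensor Zbp1 had 244, 67.7 and 237.

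The interferon-stimulated transcripts were unevenly spread over the gated cells. In thinned cells, 27.1% of the 7-day gated cells held no UMI of the list and 35.5% held 3 or more, compared with 33.5% and 17% in the control. The 10% of the cells with the most UMIs of the list held 44.5% of them at 7 days and 33.4% in the control. Isg15, a ubiquitin-like modifier chosen after its values were seen, was found in 14.1% of thinned gated cells and 12.3% of T cells at 7 days, so that its share was not above that of the T cells beyond counting error.

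Promoters are also shown for this list, of whose 29 measured members 14 were 2-fold or more higher. GAAANNGAA, core letters of the interferon-stimulated response element and of binding sites of the IRF family, was searched on both strands of the same 250 bases. Of 23 measured members with a promoter in the table, 15 held it in at least 1 promoter, and 6 of the 11 higher members with a promoter did, so that higher members did not hold it more often than the list as a whole. Of the genes with a searched promoter, 8.18% held it, and of the searched promoters 7.13%, against 57.7% of the 26 promoters of the measured members. The list was made of genes known to be induced by interferon, so that this higher share is not a result of these data. The 4 measured members with the largest 7-day ratio that hold it are given with the matching letters in capitals. The first match lies 119 bases before the start in Rsad2, 155 in Ifit3, 109 in Ifit1 and 213 in Cxcl10. In Ifit1 adjacent matches overlap, so that their capitals run together.
Rsad2, chr12:26456533-26456601, minus strand: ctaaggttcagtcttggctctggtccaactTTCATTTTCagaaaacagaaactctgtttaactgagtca
Ifit3, chr19:34583344-34583465, plus strand: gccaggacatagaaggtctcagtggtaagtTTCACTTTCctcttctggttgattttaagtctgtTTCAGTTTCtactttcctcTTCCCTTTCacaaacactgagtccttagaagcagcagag
Ifit1, chr19:34640750-34640843, plus strand: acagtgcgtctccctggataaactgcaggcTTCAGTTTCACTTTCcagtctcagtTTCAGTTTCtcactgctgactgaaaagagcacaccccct
Cxcl10, chr5:92349064-92349132, minus strand: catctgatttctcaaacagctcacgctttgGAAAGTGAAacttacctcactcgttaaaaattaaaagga

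Beside their sequences, the levels of these antiviral genes were 65.3, 152 and 436 CPM for Ifit3 and 58.4, 67.7 and 264 for Ifit1, which encode RNA-binding proteins that hold back viral translation. Cxcl10, a chemokine that attracts T cells, had 114, 152 and 425 CPM, and its 7-day ratio was 3.71 (2.87 to 4.82). The gated cells had more Cxcl10 than the T cell gate (24 CPM) and the barcodes under 200 genes (187 CPM) at 7 days.

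**Figure D4:**
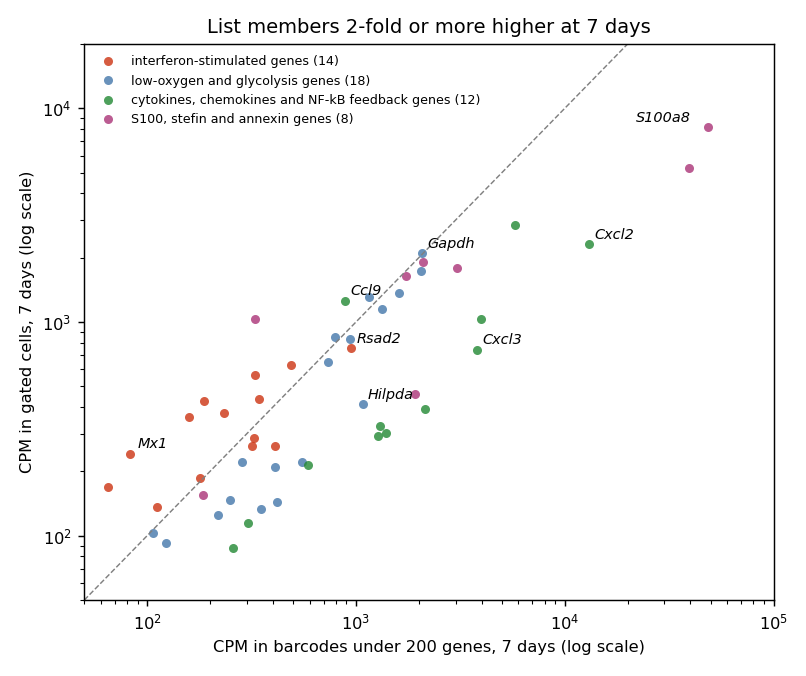
Level in gated cells (y axis) against the level in barcodes under 200 genes (x axis) of the 7-day library, both as CPM on a log scale, for the members of 4 lists that were 2-fold or more higher at 7 days than in the control. Each point is a gene and the dashed line marks equal levels. S100a8, Cxcl2, Cxcl3 and Hilpda lay below the line, while Mx1 and most other interferon-stimulated genes lay above it.

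Cytokine, chemokine and NF-kB feedback genes had 12 of 17 measured members 2-fold or more higher at 7 days, 0 lower and a median log2 ratio of 1.93. The neutrophil attractants Cxcl3 and Cxcl2 led the list. Cxcl3 had 5, 0 and 272 UMIs in the control, 1-day and 7-day cells and a 7-day ratio of 129.5 (54.8 to 402), and Cxcl2 had 50, 2 and 849 UMIs and a ratio of 40.4 (30.4 to 54.9). Neither was above its share in the T cell gate beyond counting error. In thinned cells at 7 days Cxcl3 was found in 13.6% of the gated cells and 17.8% of the T cells, and Cxcl2 in 38.7% and 35.6%. The barcodes under 200 genes held 3813 and 13082 CPM of these chemokines, above the 741 and 2314 CPM of the gated cells.

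Ccl9, a chemokine of the CCR1 ligand group, was the 1 member of the 12 higher ones that was above both comparison levels. It had 308, 186 and 1257 CPM in the gated cells and a ratio of 4.08 (3.5 to 4.76), compared with 384 CPM in the T cell gate and 888 CPM in the barcodes under 200 genes. Its relative Ccl6 had 822, 727 and 2857 CPM, with 5754 CPM in those barcodes. Ccl3, another CCR1 ligand, had 97.3, 0 and 303 CPM. The NF-kB inhibitor Nfkbia had 697, 727 and 1167 CPM and Ccl5, a chemokine of T and NK cells, 380.1, 474 and 452, and neither reached 2-fold at 7 days. The lowest ratio of the list was that of the transmembrane chemokine Cxcl16, at 96.2, 84.6 and 76.3 CPM. Il1b, which encodes interleukin-1 beta, had 205, 186 and 1038 CPM, and in thinned cells at 7 days it was found in 20.5% of the gated cells and 16.4% of the T cells.

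S100, stefin and annexin genes had 8 of 13 measured members higher and 0 lower, with a median log2 ratio of 1.12. S100a8 and S100a9, the subunits of the neutrophil and monocyte protein calprotectin, had 1801, 626 and 8161 CPM (S100a8) and 1354, 677 and 5263 CPM (S100a9). Their 7-day ratios were 4.53 (4.26 to 4.82) and 3.89 (3.61 to 4.18). At 7 days S100a8 was found in 79.5% of the thinned gated cells and 78.1% of the T cells, and S100a9 in 68.6% and 74%, so that neither share exceeded the T cell share beyond counting error. In the barcodes under 200 genes they reached 48765 and 39469 CPM. A list of 5 neutrophil markers, most of whose UMIs are those of S100a8 and whose other members are exclusion genes of the gate, summed to 2095, 829 and 9652 CPM in gated cells and to 16703 CPM in the T cell gate at 7 days. The stefin B gene Cstb, a cathepsin inhibitor, had 394, 389 and 1905 CPM, Lcn2, the iron-siderophore binder lipocalin-2, 96.2, 16.9 and 461 CPM, and S100a4 1391, 761 and 1859 CPM.

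Matrix, protease and repair growth factor genes had 12 of 25 measured members higher, 4 lower and a median log2 ratio of 0.91. Thbs1, which encodes thrombospondin-1, a matrix protein that can activate TGF-beta, had 18, 4 and 439 UMIs and a 7-day ratio of 58.1 (36.3 to 98.9). It was found in 25.4% of thinned gated cells and 16.4% of T cells at 7 days. Tgfbi, a TGF-beta induced adhesion protein of monocytes and macrophages, separated more clearly, with 493, 186 and 1638 CPM in gated cells and 96 CPM in the T cell gate. Its 7-day ratio was 3.32 (2.93 to 3.77). Ecm1, extracellular matrix protein 1, had 56.1, 102 and 398 CPM, against 72 CPM in the T cell gate and 212 CPM in barcodes under 200 genes.

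Among the other members, Fn1, fibronectin, had 275, 118 and 493 CPM, Vcan, versican, 224, 16.9 and 409 and Lgals1, galectin-1, 957, 727 and 1218. The annexin A2 gene Anxa2, a plasminogen cofactor at the cell surface, had 758, 508 and 1646 CPM. Spp1, osteopontin, was chosen after its values were seen, and it had 249.6, 219.9 and 2063 CPM in gated cells, 7789 CPM in the wound macrophage gate and 3349 CPM in barcodes under 200 genes at 7 days. Sparc, a collagen-binding protein of fibroblasts and endothelial cells, was the lowest of the list, with 619, 20 and 8 UMIs.

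Of 25 measured pattern recognition, Fc and scavenger receptors, 11 were higher, 3 were lower and the median log2 ratio was 0.91. The shared signaling adaptors Fcer1g and Tyrobp had 1768, 1438 and 3595 CPM (Fcer1g) and 2432, 2148 and 3462 CPM (Tyrobp). Fcgr3, a low-affinity IgG receptor, had 355, 186 and 701 CPM, while the inhibitory receptor Pirb had 382, 50.8 and 395. Trem1, an amplifier of inflammation shared with neutrophils, had 6, 0 and 52 UMIs, and its share in thinned cells at 7 days was 4.71% in the gated cells and 8.22% in T cells. The mannose receptor Mrc1, a marker of resident macrophages and sinusoidal endothelium, was lower at 7 days, with 184, 677 and 65.4 CPM and a ratio of 0.355 (0.221 to 0.547).

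Heme, iron and antioxidant genes had 8 of 19 measured members higher and 3 lower, with a median log2 ratio of 0.62. The subunits of ferritin, the iron store of the cell, were both higher, since Fth1 had 4619, 4043 and 15932 CPM and Ftl1 5927, 5041 and 14918 CPM, with 7-day ratios of 3.45 (3.31 to 3.59) and 2.52 (2.42 to 2.62). Barcodes under 200 genes held 30263 CPM of Fth1 at 7 days. Hmox1, which breaks down heme, had 55, 16.9 and 335 CPM, and Slc40a1, the iron exporter ferroportin, 82.4, 406 and 35.4 CPM, so that the latter was lower at 7 days than in the control. Gpx1 and Prdx5, both antioxidant enzymes, had 2366, 2064 and 2486 CPM (Gpx1) and 1236, 609 and 1556 CPM (Prdx5) and differed less.

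Lysosomal and phagosome genes differed little, with 3 of 26 measured members higher, 1 lower and a median log2 ratio of 0.35. All 3 were above both comparison levels, among them Cd68 and Lgmn. Cd68, a lysosomal membrane glycoprotein of macrophages, had 268, 219.9 and 714 CPM. The cathepsin S gene Ctss, a protease of antigen processing, had 3201, 1726 and 3838 CPM, the cathepsin B gene Ctsb 2014, 1962 and 3282, the saposin precursor Psap 2898, 2453 and 2996 and the cholesterol carrier Npc2 1724, 1117 and 1815.

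Macrophage differentiation genes were split, with 4 of 23 measured members higher, 4 lower and a median log2 ratio of -0.14, equal to that of all genes. C1qb, a complement subunit of macrophages, had 849, 778 and 706 CPM, and Apoe, the apolipoprotein, 9105, 9575 and 6176 CPM. The receptor for macrophage colony-stimulating factor, Csf1r, had 340.0, 219.9 and 324 CPM and differed little, while one chain of the GM-CSF receptor, Csf2ra, had 179.7, 203 and 431 CPM and a ratio of 2.4 (1.91 to 3.01). Il1r2, the decoy receptor for interleukin-1, had 30.9, 118 and 327 CPM and 1306 CPM in barcodes under 200 genes.

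MHC class II genes were lower at 7 days. Of 7 measured members, 4 were 2-fold or more lower, 0 were higher and the median log2 ratio was -1.07. The products of H2-Aa, H2-Ab1 and H2-Eb1 present peptides to helper T cells, and Cd74 is their chaperone. H2-Ab1 had 3824, 4229 and 1447 CPM and a 7-day ratio of 0.379 (0.345 to 0.415), and H2-Aa had 2118, 3366 and 1006 CPM and a ratio of 0.475 (0.424 to 0.531). H2-Eb1 had 1959.9, 2571 and 744 CPM and Cd74 2085, 2588 and 1167. Ciita, the master regulator of these genes, had 58, 2 and 5 UMIs, and H2-DMa and H2-DMb1, which load peptides, had 335, 305 and 204 CPM (H2-DMa) and 254, 423 and 139 CPM (H2-DMb1).

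The lower level came with a more uneven spread over the gated cells. In thinned cells, 37.4% of the control cells and 64.7% of the 7-day cells held no MHC class II UMI, and 32.4% and 14.8% held 3 or more. The 10% of the cells with the most of these UMIs held 41.8% of them in the control and 70.3% at 7 days. H2-Aa was found in 29.1% of thinned gated cells in the control, 41.2% at 1 day and 15.8% at 7 days, against 6.96%, 10.4% and 4.11% of T cells. The summed MHC class II level was 10688, 13635 and 4732 CPM in gated cells. It was lower at 7 days than in the control in the wound macrophage (9702 and 1756 CPM), Kupffer cell (11632 and 4198) and neutrophil (6577 and 3173) gates as well.

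Cell division genes were lower at 7 days, with 11 of 15 measured members 2-fold or more lower, 0 higher and a median log2 ratio of -1.67. Mki67, the proliferation antigen Ki-67, had 214, 3 and 2 UMIs and a 7-day ratio of 0.0223 (0.00268 to 0.0814). Mki67 was found in 7.09%, 2.86% and 0.308% of the gated cells before thinning. Smc2, a condensin subunit, had 112, 1 and 5 UMIs, and the chromatin protein gene Hmgb2 had 1249, 626 and 398 CPM. H2afz and Tuba1b, a histone variant and a tubulin that are also used outside of division, had 412, 491 and 403 CPM (H2afz) and 337, 338 and 316 CPM (Tuba1b) and differed little. Tubb5, another tubulin, had 263, 524 and 147 CPM. In the control the top 10% of the thinned gated cells held 55.2% of the UMIs of this list.

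Granule genes of marrow precursors other than Chi3l3 were lower at 7 days. Of 3 measured members, 2 were lower (Camp and Ngp) and 1, Chi3l3, was higher. Camp, the antimicrobial peptide cathelicidin, had 225, 0 and 0 UMIs, so that with a floor of 3 UMIs its 7-day level was at most 0.0317 times the control level. In the control it was found in 1.11% of the gated cells. Ngp, a neutrophil granule protein, had 135, 0 and 28 UMIs. Prtn3 had 41, 0 and 3 UMIs, Mpo had 25, 0 and 0 and Elane had 9, 0 and 1, all of them proteins of azurophil granules.

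Nuclear genes of the respiratory chain differed little. None of the 31 measured members reached 2-fold in either direction at 7 days, and their median log2 ratio was 0.05. The mitochondrially encoded share of the UMIs, given above, was lower at 7 days in every gate, from 14.3% to 23.6% in the control gates to 3.0% to 5.09% at 7 days. Its cause was not tested, and the CPM used here leave these transcripts out.

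Fibroblast, erythroid and immunoglobulin transcripts were higher in the control gated cells than at 7 days. Platelet markers, by contrast, summed to 200 CPM in the control and 463 at 7 days. Plasmacytoid dendritic cell markers summed to 457 and 515 CPM. Of 3 measured members of that list, however, 2 (Siglech and Ly6d) were 2-fold or more lower at 7 days and 0 were higher. The other member was Bst2, which is also in the interferon list. Fibroblast markers were found in 149 control cells, 2 cells at 1 day and 2 cells at 7 days. Col1a2, a chain of type I collagen, had 616, 2 and 0 UMIs, Col3a1 had 542, 2 and 0, and the proteoglycan decorin (Dcn) had 286, 0 and 1. The hemoglobin gene Hbb-bs had 227, 1 and 2 UMIs and the immunoglobulin light chain Igkc 507, 13 and 3. In control barcodes under 200 genes these had 489 CPM (Col1a2), 224 CPM (Hbb-bs) and 852 CPM (Igkc). Their part in the list of lower genes was not tested.

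Leaving out every cell with any exclusion gene left 158 cells at 7 days and 937 in the control. In them Thbs1 stood at 12 CPM in the control and 807 at 7 days, Chi3l3 at 467 and 2960.1, Hilpda at 5.99 and 282, and Cxcl2 at 45.9 and 1499. H2-Ab1 stood at 3632 and 1448 CPM. The directions of these genes were therefore the same in cells without any wound macrophage, neutrophil or Kupffer cell gene of the gate. With at least 3 of the 4 panel genes, which left 220 cells at 7 days and 620 in the control, the median log2 ratio was 1.70 for the low-oxygen list, 0.77 for the interferon list, -1.23 for MHC class II and -0.58 for cell division. The last of these was short of 2-fold, as it was at -0.74 in cells with none of the 12 exclusion genes. Without cells over 20% mitochondrial UMIs, which were 48.0% of the gated control cells and 0.154% of those at 7 days, the medians were 1.93 for the low-oxygen list, 1.13 for the interferon list, -0.98 for MHC class II and -2.62 for cell division.

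Within each library, cells with more panel genes had a higher summed level of classical monocyte genes that the gate did not use. The summed classical monocyte list outside the gate stood at 15721 CPM in control cells with 2 panel genes and 21846 with 3 or 4, at 10059.8 and 19197 at 1 day, and at 29698 and 32947 at 7 days. MHC class II went the other way, with 12213 and 8716 CPM in the control, 14533 and 7830.3 at 1 day and 5723 and 3168 at 7 days. The order was the same in the 3 libraries for both lists. The split uses the panel genes that chose the cells, so that these values are a description only. Median UMI counts of the cells with 2 and with 3 or 4 panel genes were 583 and 634 in the control, 585 and 571 at 1 day and 492 and 614 at 7 days.

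At 1 day, 3220 genes had at least 50 UMIs over the gated cells of the 1-day and control libraries. Of these, 188 (5.84%) were 2-fold or more higher and 491 (15.2%) were 2-fold or more lower, with a median log2 ratio of -0.18. The lists at 1 day are to be read against these shares. The 1-day cells held 59112 non-mitochondrial UMIs, so that a gene with few UMIs could pass 2-fold by counting error. With at least 300 UMIs over the compared libraries, 3 genes were higher and 49 were lower. The genes with the largest ratios were Siglech, Ppap2a, Ehd3, Egfl7, Gpr116, Dnase1l3, Clec4g, Dpp4, Ly6d and Ptprb. With a count of 0 set to a floor of 3 UMIs, those with the smallest were Col1a2, Col3a1, Cd63, Hbb-bs, Vcan, Klra2, Ms4a7, Psme2b, Rwdd1 and Klf4. A gene with a count of 0 at 1 day, such as Dcn, can therefore be missing from these. Of the 188 higher genes, 93 (49.5%) were above both the T cell gate and the barcodes under 200 genes of the 1-day library. Of all 3220 genes, 1243 (38.6%) were.

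Among the genes with the largest ratios at 1 day were markers of other cells. Siglech, a receptor of plasmacytoid dendritic cells, had 44, 39 and 7 UMIs in the control, 1-day and 7-day cells and a 1-day ratio of 13.1 (8.29 to 20.6). In thinned cells at 1 day it was found in 12.7% of gated cells and 1.04% of T cells. Ly6d, another gene of these dendritic cells and of B cell precursors, had 46, 17 and 5 UMIs. Plac8, Ly6c2 and Ccr2 are known to be expressed in plasmacytoid dendritic cells too. In the 73 gated cells of the 1-day library without 2 or more markers of another type, Siglech stood at 344 CPM, against 16.3 in the 1308 control cells left by the same rule.

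Endothelial genes were the other group. The C-type lectin Clec4g and the nuclease Dnase1l3, both of liver sinusoidal endothelium, had 135, 795 and 8.18 CPM (Clec4g) and 113, 711 and 13.6 CPM (Dnase1l3), with 1-day ratios of 5.89 (4.1 to 8.32) and 6.27 (4.26 to 9.08). Ptprb, a receptor phosphatase of vessels, had 197, 1066 and 19.1 CPM. The barcodes under 200 genes of the 1-day library had more of each, 1176 CPM of Clec4g, 1169.7 of Dnase1l3 and 2412 of Ptprb. Siglech, by contrast, had 105 CPM in those barcodes, below the 659.8 CPM of the gated cells.

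Classical monocyte genes outside the gate were lower at 1 day, with 0 of 28 measured members higher, 12 lower and a median log2 ratio of -0.91. S100a6 stood at 0.268 times (0.179 to 0.386) its control level and Cybb at 0.464 times (0.313 to 0.662). Outside this list, Ctss stood at 0.539 times (0.438 to 0.657). Among the smallest ratios of all measured genes, Vcan, the receptor gene Klra2 and Klf4, a transcription factor of monocyte differentiation, had 1 UMI each at 1 day. In the control they had 196, 178 and 134. In the 14 cells at 1 day with 3 or 4 panel genes the summed classical monocyte list stood at 19197 (16266 to 22503) CPM, and in such cells of the control at 21846 (21379 to 22320.2) CPM. With at least 3 panel genes the list median at 1 day was -0.40.

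MHC class II genes were not lower at 1 day, with 0 of 7 measured members past 2-fold in either direction and a median log2 ratio of 0.31. H2-Aa reached 1.59 times (1.37 to 1.84) the control level. In the 73 cells without 2 or more markers of another type, H2-Aa stood at 4239 CPM, against 2105 in the control cells left by the same rule. The low-oxygen list had 0 of 13 measured members higher and 2 lower at 1 day, the cytokine list had 0 of 10 past 2-fold, and the interferon list had 5 of 27 higher and 4 lower. Hepatocyte genes had 17 of 17 measured members higher and a median log2 ratio of 4.58, and 0 of these 17 were above both the T cell gate and the barcodes under 200 genes.

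Set beside the wound macrophage gate, the gated cells of the 7-day library had more MHC class II and fewer cytokine, matrix and iron transcripts. The wound macrophage gate took Lyz2-positive cells with at least 2 of Arg1, Ccl2, Ccl7 and Ccl12 and held 59, 11 and 815 cells in the control, 1-day and 7-day libraries. At 7 days the MHC class II sum was 4732 (4512 to 4959.8) CPM in the gated monocytes and 1756 (1639 to 1879) CPM in wound macrophages. The cytokine sum was 11859.6 (11509.8 to 12217) and 23679.9 (23244 to 24122) CPM, the matrix sum 15744 (15340.3 to 16155) and 26864 (26399.5 to 27334) CPM, and the iron and antioxidant sum 39997 (39352 to 40649.5) and 63005 (62293 to 63723) CPM. The gates differ by construction in Arg1, Ccl2, Ccl7 and Ccl12, which are in none of these lists. They also differ in the panel genes, which only the monocyte gate asked for. At 7 days the wound macrophage list left 423 cells with 2 or more panel genes out of the monocyte gate. How much of these differences follows from the gate rules was not tested. Cells of different gates within a library are not replicates. Interferon genes differed less, with 9663 (9347 to 9986) and 8182 (7927 to 8444) CPM.

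**Figure D5:**
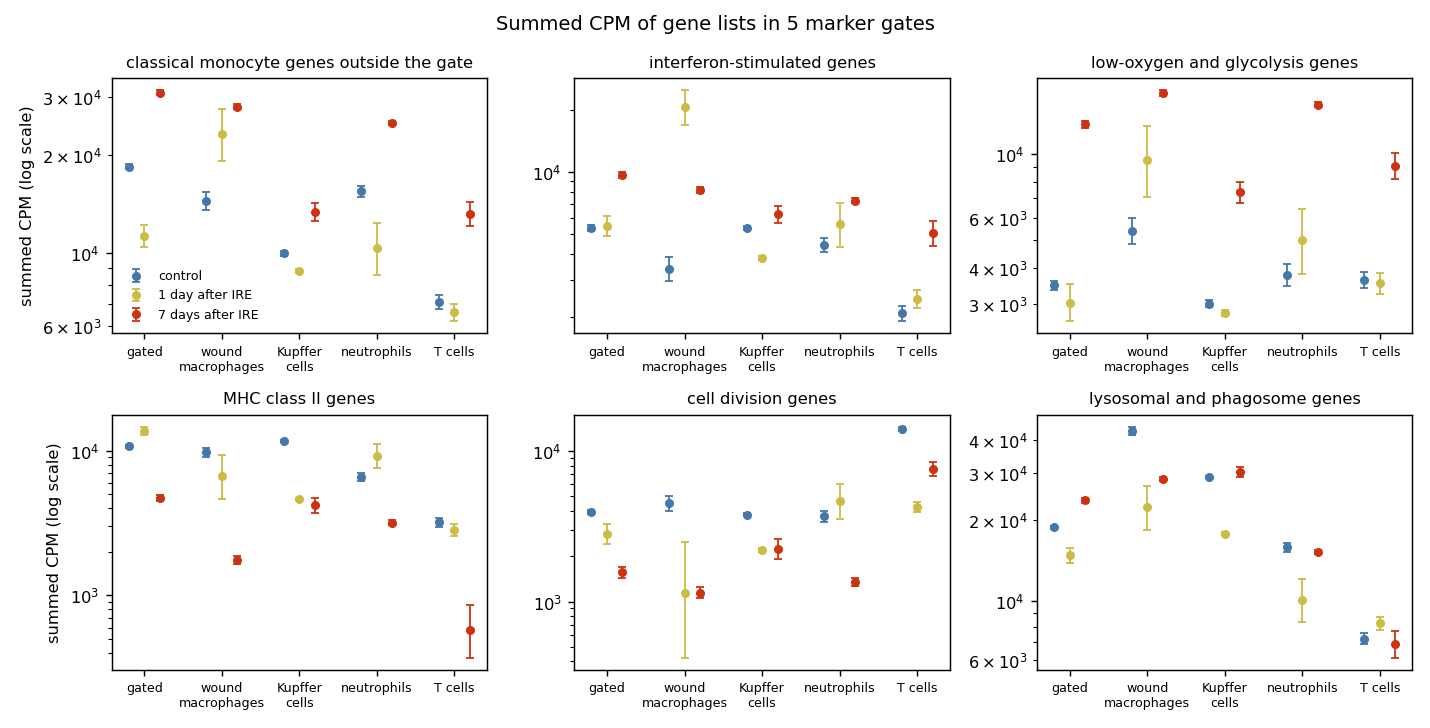
Summed CPM of 6 gene lists (y axes, log scale, each panel with its own range) in the gated cells and in the wound macrophage, Kupffer cell, neutrophil and T cell gates (x axis) of each library, with exact 95% Poisson intervals. At 7 days the gated cells had the highest point for interferon-stimulated genes and for MHC class II, and a lower point than wound macrophages and neutrophils for low-oxygen genes.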

How the data were processed

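Drop-seq libraries of mouse liver were sequenced, and the deposited tables hold raw UMI counts per gene and barcode. Per the labels, the submitters' processing notes name STAR 2.5.2a and the build hg19, a human build, so that no coordinates are given for the counts. Promoter coordinates are those of RefSeq (GRCm38.p6). Conditions were taken from the labels, with 1 library each. The members of the gate and the gene lists were chosen with earlier results of these data known.

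Gated cells were summed per library and scaled to CPM over non-mitochondrial UMIs (python 3.11.15, numpy 2.4.6, scipy 1.17.1, pandas 2.3.3). Ratios were computed for genes with at least 50 UMIs over the 2 libraries compared. For list medians, rankings and counts past 2-fold, a count of 0 was set to a floor of 3 UMIs. Other counts below the floor were left as they were, so that a gene with 0 UMIs can rank above a gene with 1. Intervals are exact 95% Poisson (levels), Clopper-Pearson (shares) and conditional binomial (ratios), and they cover counting error only. Shares of cells with a UMI used cells thinned to 300 UMIs. The T cell gate took cells with at least 2 of Cd3d, Cd3e, Cd3g, Trac and Trbc2. No doublet caller was run, and an alternative left out the deepest 5% of the cells. Genes were named by rule, as the 10 largest and 10 smallest ratios of each comparison and, in each list, the 4 members with the most UMIs and those with the largest and smallest ratios. Others are cell type markers fixed with the gate, except Cxcl10, Elane, Fcgr1, Gpi1, Ifit1, Ifit3, Il1b, Isg15, Itga4, Lgmn, Mpo, Mx1, Pfkp, Rsad2, S100a10, Slc2a1 and Spp1, which were chosen after their values were seen. A few genes of the lists are not reported here. The scripts were tested on simulated data.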

Additional observations from a re-analysis of the deposited data

How the results depend on the processing

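No paired analysis was possible because there is 1 library per condition, and leaving out a replicate could not be done for the same reason. The alternatives that ask for none of the 12 exclusion genes and for at least 300 UMIs were chosen after seeing the data. The share of cells gated moved with the gate in each library. For the control, 1-day and 7-day libraries it was 5.97%, 0.151% and 3.91% with at least 3 of the 4 panel genes, 16.0%, 1.76% and 23.6% without exclusions, 9.02%, 0.367% and 2.81% with none of the 12 exclusion genes, 15.4%, 1.53% and 16.2% with at least 300 genes, 10.5%, 0.650% and 6.26% over every deposited barcode, and 8.18%, 0.469% and 8.66% with the gate applied after thinning. It was 12.6% and 0.789% in the control and 1-day libraries without cells carrying markers of another type, and 13% and 1.64% without cells over 20% mitochondrial UMIs. The 1-day share was the lowest under each of these.

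Counts of genes past 2-fold also moved. At 1 day, 139 genes were lower with at least 3 panel genes, 94 were higher without cells over 20% mitochondrial UMIs, 258 were lower with none of the 12 exclusion genes, 858 were higher and 767 lower with a minimum of 20 UMIs, and 3 and 49 with 300 UMIs. At 7 days, 139 were higher and 193 lower with at least 3 panel genes, 315 lower without cells over 20% mitochondrial UMIs, 451 and 309 over all UMIs, 152 and 248 with none of the 12 exclusion genes, 429 and 1236 with a minimum of 20 UMIs, and 74 and 38 with 300 UMIs. Fewer cells or another minimum change how many genes are measured. With the median gene set to 1, 272 were higher and 369 lower at 1 day and 351 and 394 at 7 days.

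Among results past 2-fold in the main setting, the fibroblast list at 1 day had a median log2 ratio of 0.51 with at least 3 panel genes. Its markers held 0 UMIs in those 1-day cells and 389 in such control cells. This median therefore rests on the floor of 3 UMIs and gives no direction. The same setting turned Pla2g7 to 0.47 and Uqcrc1 to -0.29 at 1 day. With none of the 12 exclusion genes Nkg7 turned to 0.40 and Pf4 to -1.10 at 7 days. The causes of the turns in these genes were not tested. Each list was counted under each alternative once. In this count 269 medians at 1 day and 253 at 7 days kept their side of 2-fold, 4 and 12 came to lie short of it and 4 and 8 past it. A median short of 2-fold that changed sign was counted among those that kept their side. The median of MHC class II at 7 days lay between -0.79 and -0.98 under the 5 alternatives that left it short of 2-fold.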

Other observations

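Complement and coagulation genes were split at 7 days, with 4 of 12 measured members 2-fold or more higher, 4 lower and a median log2 ratio of -0.04. The receptors for the inflammatory fragments of complement were higher, since C5ar1 had 51.5, 50.8 and 354 CPM and C3ar1 81.3, 16.9 and 209.9 CPM in the control, 1-day and 7-day gated cells, with 7-day ratios of 6.88 (4.87 to 9.88) and 2.58 (1.85 to 3.62). C3ar1 was above its level in the T cell gate (24 CPM) and in barcodes under 200 genes (128 CPM), and C5ar1 was below the 449 CPM of those barcodes. Cd55, which shields cells from complement and is also made by endothelium, had 52, 16 and 1 UMI, a 7-day ratio of 0.0458 (0.00114 to 0.267). Coagulation factor X (F10) had 254, 135 and 575 CPM.

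Eicosanoid genes had 4 of 9 measured members higher at 7 days and 1 lower, with a median log2 ratio of 0.97. Alox5ap, which hands arachidonic acid to 5-lipoxygenase for leukotriene synthesis, had 711, 659.8 and 1532 CPM, and Ltb4r1, the receptor for leukotriene B4, had 30.9, 33.8 and 104 CPM. Hpgd, which inactivates prostaglandins, was the lower member, with 85.9, 389 and 19.1 CPM. Barcodes under 200 genes held 1818 CPM of Alox5ap and 160.1 CPM of Ltb4r1 at 7 days.

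Myeloid transcription factors mostly kept their levels, with 4 of 29 measured members higher, 3 lower and a median log2 ratio of 0.02. Spi1, which encodes PU.1, had 347, 271 and 419.8 CPM, Zeb2 622, 271 and 551 CPM and Maf 459, 744 and 387 CPM. Batf3, a factor of conventional dendritic cells, had the lowest ratio, with 67.5, 152 and 16.4 CPM, and the immediate early gene Egr1 the highest, with 66.4, 67.7 and 204 CPM and 667 CPM in barcodes under 200 genes. MHC class I and peptide loading genes had 0 of 11 measured members past 2-fold and a median log2 ratio of -0.44, unlike MHC class II. Among 10 measured nonclassical monocyte genes, 1 was higher and 3 were lower. The higher one was Apoc2, an apolipoprotein, at 152, 219.9 and 553 CPM, and the lowest was Fabp4, a fatty acid binding protein, at 136, 50.8 and 16.4 CPM.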
